A study of Saccharomyces cerevisiae with 6 samples.

Results

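The transcripts of 57 pre-mRNA splicing factors were compared between yeast treated with zymolyase, a preparation of enzymes that break down cell wall glucan, and untreated yeast. The genes were taken by name from the probe sets with 1 annotated Saccharomyces cerevisiae gene: all PRP, LSM, SNU and CWC genes with a number, the Sm protein genes SMB1, SMD1, SMD2, SMD3, SME1, SMX2 and SMX3, and BRR2, MUD1, MUD2 and MSL5. They are 57 of 5449 genes with such a probe set on the array, and each had 1 probe set. The labels give the cells of the 3 zymolyase samples as the diploid laboratory strain BY4743 (MATa/α with his3, leu2, met15, ura3 and lys2 mutations). Several marker genes did not bear out this identity. The cells were grown in YPD rich medium for 2 days at 25 °C. They were then given 30 U/ml of zymolyase for 10 min at 37 °C. The 3 control samples were cells with the same strain label and culture conditions without the enzyme. The labels name digestion as what separates the groups but leave out at which temperature the control cells were kept meanwhile, so the enzyme and a step to 37 °C cannot be told apart for any gene below. Each sample was hybridised to 1 Affymetrix array, and the labels do not say whether the 3 samples of a group were separate cultures. The p-values therefore measure the spread between these samples only.

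Splicing removes introns from pre-mRNA in the spliceosome, which is built from the U1, U2, U4, U5 and U6 small nuclear ribonucleoproteins (snRNPs) and many further proteins. U1 and a branch point binding protein first mark the intron ends, U2 then joins at the branch point, and the U4/U6.U5 tri-snRNP follows. RNA helicases and the Prp19 complex drive the rearrangements that activate the spliceosome and later take it apart. Few budding yeast genes have introns, but ribosomal protein genes are rich in them, so much of the splicing in growing yeast serves those transcripts. By their known roles the 57 genes cover U1 (6 genes), branch point binding (2), the U2 subcomplex SF3a (3), the Sm ring (7), Lsm proteins (9), the tri-snRNP (12), helicases (7) and the Prp19 complex with its associated factors (11). The name rule also takes in LSM1, which acts in cytoplasmic mRNA decay, and LSM12, which is not known as a subunit of either Lsm ring. Conversely, splicing genes with other names were left to a separate list of 42 genes.

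All values are signals in intensity units that the authors computed with MAS5, which summarises the probes of a probe set and scales each array to a common mean. A shift of all messenger RNA at once is therefore not seen, and in these bulk samples fewer cells with a transcript and less of it per cell cannot be told apart. The signals of different genes come from different probes and are not set against each other. Fold changes are log2 values, zymolyase minus control, with their standard error (SE) from limma, a linear model fitted to all 5394 S. cerevisiae probe sets above background. A gene is called higher or lower where its Benjamini-Hochberg adjusted p over those probe sets is under 0.05. All 57 genes passed the background filter, and on every array each gave at least 1.55 times the 99th percentile of probe sets made for a second species, a measure of cross-hybridisation. Log2 signals correlated at 0.985 to 0.987 within a group and at 0.938 to 0.947 across groups. The strain label was not borne out, since URA3 and LEU2, given as deleted, were at least 55.0 and 26.1 times that percentile on every array. Of the genes that a/α diploids repress, HO, RME1, STE3 and MF(ALPHA)1 were at least 36.5, 57.4, 87.3 and 384 times that percentile. STE2 and MFA1, also repressed in a/α diploids, were dim, at 1.09 and 0.63 times the percentile on their lowest arrays. The cells are therefore called the strain labelled BY4743.

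Splicing factor transcripts were lower more often than higher with zymolyase. Of the 57 genes, 31 fell, 10 rose and 16 did not pass the test. Among all 5394 probe sets, 38.9% were called lower and 32.6% higher. The corresponding shares of the splicing factors were 54.4% lower and 17.5% higher. The median log2 fold change was -0.27 over the 57 genes and -0.08 over all probe sets, without a test between these medians. On the zymolyase arrays the median deviation of the 57 genes from their mean control signal was -0.28, -0.30 and -0.19 on the log2 scale, against -0.01, -0.01 and 0.02 on the control arrays. The direction was thus shared by all 3 zymolyase arrays. In 45 genes (78.9%) the zymolyase and control signals did not overlap, and this held for 73.3% of all probe sets. Most changes were smaller than 1 on the log2 scale: 3 of the 57 genes had a log2 fold change of 1 or more and 3 of -1 or less. Among all 5394 probe sets 466 (8.64%) and 139 (2.58%) had such changes. The share of large rises was thus below that of all probe sets and the share of large falls above it, on 3 genes each.

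**Figure D1:**
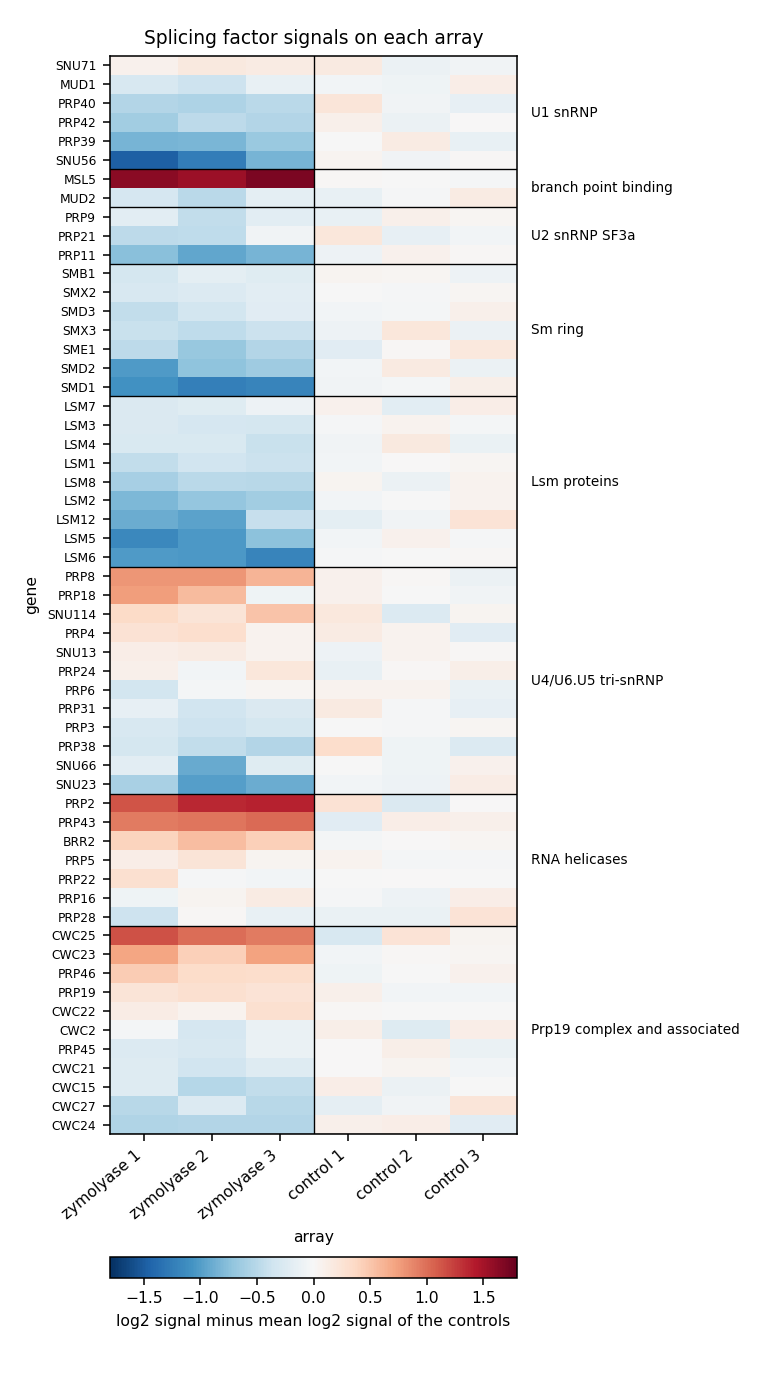
Signals of the 57 splicing factor genes (rows, by role) on the 3 zymolyase and 3 control arrays (columns), as log2 signal minus the mean log2 control signal of the gene. Blue is lower and red higher than the controls: the Sm and Lsm rows are blue on the zymolyase arrays, and MSL5 and PRP2 are the darkest red rows.

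The array labelling begins at the 3' end of a transcript, and across the whole array the fold change moved with gene length. Over all 5394 probe sets the log2 fold change correlated with log2 coding length (introns included) at Pearson r = 0.33, and over the 57 splicing factors at r = 0.47, as descriptions across genes that share the same 6 arrays. Probe sets of genes up to 600 nt were called lower in 62.0% and higher in 13.8% of cases, whereas those of genes over 1500 nt were called lower in 17.6% and higher in 48.9%. The 21 splicing factors up to 600 nt had 18 falls and 1 rise, and the 19 over 1500 nt had 5 falls and 6 rises. The signal ratio of the 3' to the 5' control probe set of ACT1, a measure of RNA integrity, was 2.44, 2.54 and 2.33 on the zymolyase arrays, against 2.19, 2.06 and 1.86 on the control arrays. All zymolyase ratios were above all control ratios (difference of 0.26 in mean log2 ratio). An exact two-sided permutation test gave p = 0.1, which 6 arrays cannot go below. The part of this ratio in the fold changes was not tested. Fold changes with the length trend taken out of each array are therefore given beside the measured ones. With the trend removed, 23 splicing factors were lower and 8 higher (all probe sets 40.1% and 28.8%), and their median log2 fold change was -0.16 (all probe sets -0.11). The splicing factors as a whole then lay near the background in the lower direction, at 40.4%, and below it in the higher direction, at 14.0%. Of the 41 calls, 21 held with the trend removed and under the 15 other alternative settings, namely 6 rises and 15 falls.

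**Figure D2:**
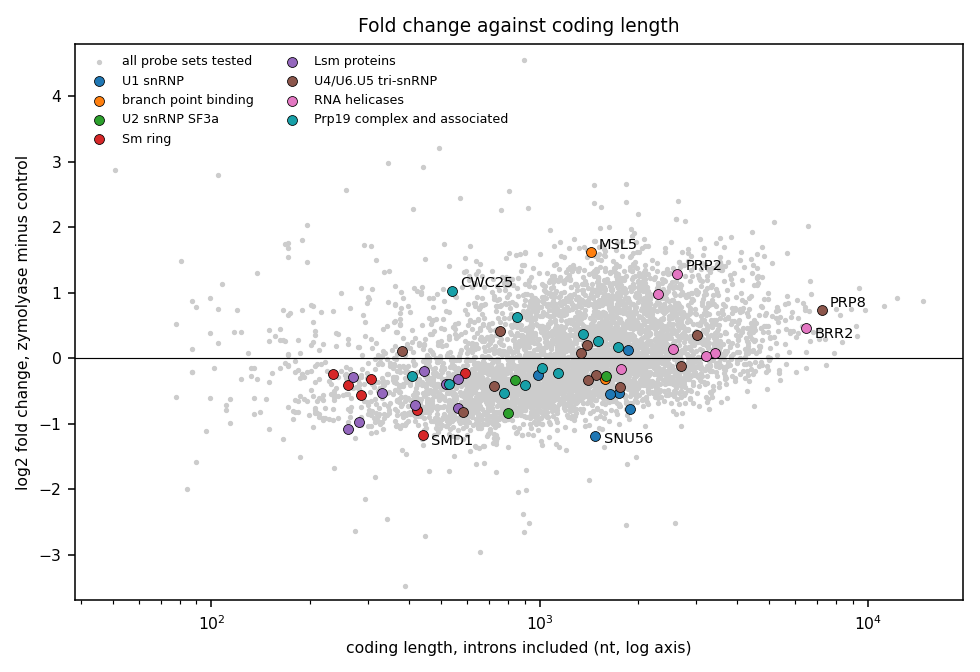
Log2 fold change (zymolyase minus control) against coding length in nt on a log axis, with all 5394 probe sets in grey and the 57 splicing factors coloured by role. The short Sm and Lsm genes lie below 0, the long genes PRP8 and BRR2 above it, and MSL5, CWC25 and SNU56 lie away from the bulk of genes of their length.

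Of the U1 snRNP, which pairs with the 5' splice site, 5 of the 6 genes in this set fell, 0 rose and 1 did not pass. Their median log2 fold change was -0.53, and 38.9% of all probe sets were called lower. These are genes of 986 to 1890 nt, and with the length trend removed 4 were still lower, with a median of -0.73 (all probe sets 40.1% lower). Among U1 genes outside this set, given below, LUC7 rose, YHC1 fell, and NAM8 and SNP1 did not pass. SNU56, a U1 protein of budding yeast, gave signals of 65.6, 76.4 and 102 with zymolyase, against 188, 173 and 184 in the control. Every zymolyase array was below 173, the lowest control signal, and the fall of -1.18 ± 0.17 SE on the log2 scale was the largest of all 57 genes (adjusted p = 3.1e-05; -1.32 with the length trend removed). PRP39 and PRP42 encode related repeat proteins of U1. PRP39 signals were 221, 224 and 249 with zymolyase, against 393, 439 and 361 in the control, and PRP42 signals 350.4, 391 and 376 with zymolyase, against 578, 504 and 542 in the control. In neither gene did the groups overlap, and the log2 fold changes were -0.78 ± 0.10 SE and -0.54 ± 0.08 SE (adjusted p = 1.2e-05 and 5.1e-05). With the trend removed they were -1.02 and -0.73. PRP40, which links U1 to the branch point binding protein, gave 401, 391 and 410.1 with zymolyase, against 668, 552 and 518 in the control, a log2 fold change of -0.52 ± 0.09 SE (adjusted p = 2.1e-04; -0.74 once the trend was removed). MUD1, another RNA-binding subunit of U1, had the smallest of the 5 falls (-0.26 ± 0.08 SE, adjusted p = 0.013). That call was lost when control replicate 3 was left out (adjusted p = 0.067), when zymolyase replicate 2 was left out (0.057) and with the trend removed (0.095). SNU71 did not pass, with signals of 188, 201 and 196 with zymolyase, against 199.7, 165 and 170.4 in the control (log2 fold change 0.13 ± 0.11 SE, 95% interval -0.11 to 0.38, adjusted p = 0.31).

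Of the 2 genes for proteins that bind at the branch point, 1 rose and 1 fell. Of all probe sets, 32.6% were called higher and 38.9% lower, so 2 called genes are not unusual. MSL5 encodes the branch point binding protein itself, which reads the branch point sequence before U2 arrives. Its signals were 278, 261 and 293 with zymolyase, against 91.9, 89.8 and 89.0 in the control. The lowest zymolyase signal was far above the highest control signal, and the mean was 3.07 times that of the control as a geometric mean (log2 fold change 1.62 ± 0.11 SE, adjusted p = 5.7e-08). This was the largest rise among the splicing factors and ranked 77 from the top of all 5394 probe sets. With the length trend removed it was 1.49 (adjusted p = 2.0e-07). MUD2, its partner protein and the yeast relative of U2AF, gave 204, 181 and 223 with zymolyase, against 230.5, 249 and 279 in the control, without overlap (log2 fold change -0.32 ± 0.11 SE, adjusted p = 0.022; -0.50 once the trend was removed). The fall of MUD2 lost its call without control replicate 3 (adjusted p = 0.10) and without zymolyase replicate 2 (0.088).

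The SF3a subunits PRP9, PRP11 and PRP21, which help U2 to bind the branch point, pointed down, and 2 of the 3 fell. Of all probe sets, 38.9% were called lower, and 40.1% with the length trend removed. So small a group cannot be set apart from these shares. PRP11 gave 317, 279 and 300.2 with zymolyase, against 500.0, 562 and 541 in the control, so that the groups lay well apart (log2 fold change -0.84 ± 0.08 SE, adjusted p = 1.3e-06; -0.63 once the trend was removed). PRP21 gave 211, 213 and 279.9 with zymolyase, against 337, 263 and 282 in the control. Zymolyase replicate 3 lay inside the control range, and the fall (-0.33 ± 0.13 SE, adjusted p = 0.035) lost its call without any 1 of 4 arrays (highest adjusted p = 0.16, without control replicate 1), without the intensity trend of eBayes (0.083) and with the length trend removed (0.34). PRP9 signals were 175, 147 and 174 with zymolyase, against 182, 212 and 205 in the control. They did not overlap, but the difference did not pass (-0.27 ± 0.12 SE, adjusted p = 0.053). It passed with the length trend removed (-0.45, adjusted p = 0.0046), without control replicate 1 (0.037), under quantile normalization (0.049), with median centring (0.026) and without the intensity trend of eBayes (0.044).

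**Figure D3:**
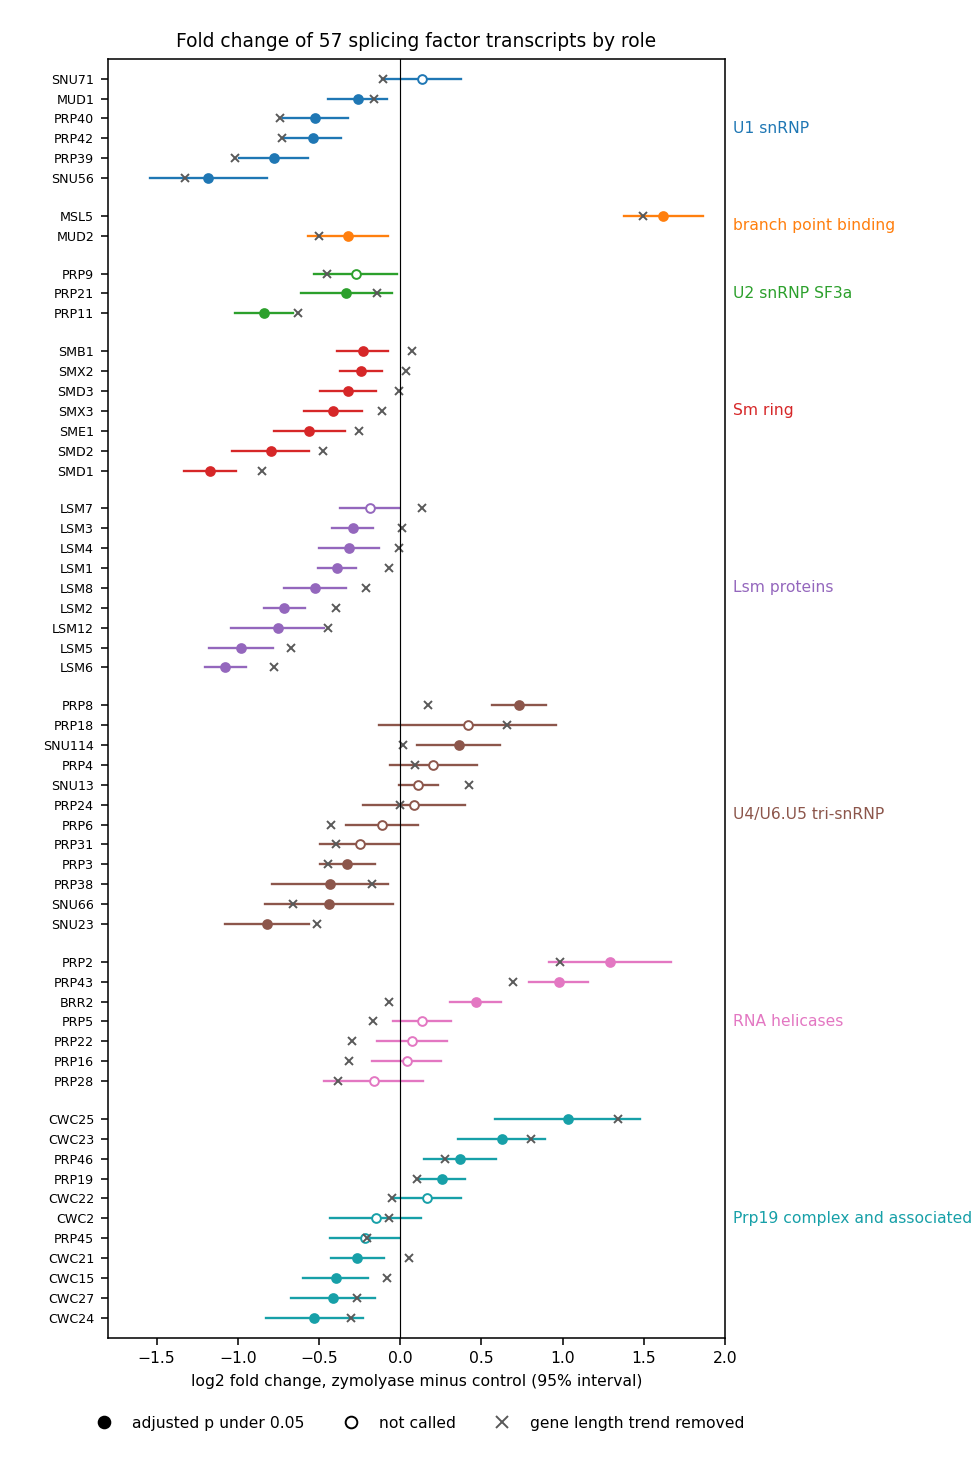
Log2 fold change (zymolyase minus control) with its 95% interval for each of the 57 splicing factors, by role. Filled circles passed at an adjusted p under 0.05, open circles did not, and crosses are the values with the gene length trend removed; the Sm and Lsm genes lie left of 0 in the measured values, and many of their crosses lie near 0.

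The 7 Sm proteins form the ring at the core of the U1, U2, U4 and U5 snRNPs, and all 7 transcripts fell without overlap of the groups (median log2 fold change -0.41). They are also short genes, of 234 to 591 nt. Among all probe sets of genes up to 600 nt, 62.0% were called lower, and the groups did not overlap in 76.7%. SMD1 had signals of 423, 383 and 394 with zymolyase, against 859, 878 and 969 in the control, a gap wider than the range of either group (log2 fold change -1.17 ± 0.07 SE, adjusted p = 2.3e-08). SMD2 gave 232, 284 and 301 with zymolyase, against 453, 527 and 436 in the control (-0.80 ± 0.11 SE, adjusted p = 2.6e-05). SME1 gave 387, 335 and 372 with zymolyase, against 466, 543 and 611 in the control (-0.56 ± 0.10 SE, adjusted p = 2.5e-04). With the length trend removed these 3 remained lower, at -0.85, -0.48 and -0.25. The other 4 had log2 fold changes of -0.41 ± 0.08 SE for SMX3, -0.32 ± 0.08 SE for SMD3, -0.24 ± 0.06 SE for SMX2 and -0.23 ± 0.07 SE for SMB1 (adjusted p = 5.7e-04, 0.0028, 0.0026 and 0.011). None of these 4 passed with the trend removed, and their values were then -0.12, -0.01, 0.04 and 0.07.

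The Lsm proteins form related rings: Lsm2 to Lsm8 bind the 3' end of U6 RNA in the nucleus, and Lsm1 to Lsm7 act in mRNA decay in the cytoplasm. Of 9 LSM genes, 8 fell, 0 rose and 1 did not pass (median log2 fold change -0.53). LSM6 gave 1156, 1140 and 1028 with zymolyase, against 2307, 2317 and 2372 in the control, and LSM5 gave 973, 1060 and 1307 with zymolyase, against 2094, 2294 and 2147 in the control. The groups did not overlap in either gene. The log2 fold changes were -1.08 ± 0.06 SE and -0.98 ± 0.09 SE (adjusted p = 8.2e-09 and 7.1e-07), and both genes were lower with the trend removed (-0.78 and -0.67). LSM2 gave 2456, 2657 and 2781 with zymolyase, against 4160, 4285 and 4494 in the control (-0.71 ± 0.06 SE, adjusted p = 2.4e-07; -0.40 with the trend removed). The subunits that tell the rings apart both fell. LSM8, of the nuclear ring, gave 241, 261 and 259 with zymolyase, against 378, 339 and 381 in the control (-0.53 ± 0.09 SE, adjusted p = 1.4e-04). LSM1, of the cytoplasmic ring, gave 1459, 1560 and 1516 with zymolyase, against 1908, 1999 and 2038 in the control (-0.39 ± 0.05 SE, adjusted p = 2.9e-05). With the trend removed LSM8 was at -0.21 (adjusted p = 0.043) and LSM1 at -0.07 (adjusted p = 0.24); a difference between the 2 genes was not tested. LSM12 gave 954, 903 and 1329 with zymolyase, against 1559, 1683 and 2099 in the control, the widest spread among the Lsm genes (-0.76 ± 0.13 SE, adjusted p = 2.1e-04). LSM3 and LSM4 had log2 fold changes of -0.29 ± 0.06 SE and -0.32 ± 0.08 SE (adjusted p = 5.7e-04 and 0.0046) and of 0.01 and -0.01 with the trend removed. LSM7, at -0.19 ± 0.08 SE, did not pass (adjusted p = 0.058, 95% interval -0.37 to -0.01), except under median centring (0.021), with the replicate number as a block (0.021), without control replicate 2 (0.0042) and without zymolyase replicate 3 (0.026). Together 15 of the 16 Sm and Lsm genes fell (93.8%), and 8 of 16 with the trend removed (50%). All are under 600 nt. Among all probe sets of genes up to 600 nt, 62.0% were called lower, and 40.7% with the trend removed.

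The U4/U6.U5 tri-snRNP brings the catalytic RNA into the spliceosome, and its 12 genes in this set went both ways: 2 rose, 4 fell and 6 did not pass. The shares were 16.7% higher and 33.3% lower, against 32.6% and 38.9% of all probe sets, and the median log2 fold change was -0.01. PRP8, the scaffold of the catalytic centre and the longest of the 57 genes at 7242 nt, gave 839.7, 846 and 741 with zymolyase, against 513, 493 and 453 in the control. The groups lay apart (log2 fold change 0.73 ± 0.08 SE, adjusted p = 2.2e-06), but with the length trend removed its value of 0.17 no longer passed (adjusted p = 0.059). SNU114, the GTPase of U5, gave 338, 313 and 382 with zymolyase, against 304, 226 and 277 in the control (0.36 ± 0.12 SE, adjusted p = 0.015). Its value was 0.02 with the trend removed (adjusted p = 0.9), and the call was also lost without control replicate 2 (adjusted p = 0.072) and without zymolyase replicate 3 (0.060). SNU23, a protein of the complex that precedes activation, gave 223, 168 and 179 with zymolyase, against 323, 313 and 367 in the control, without overlap (-0.82 ± 0.12 SE, adjusted p = 4.0e-05; -0.52 with the trend removed). PRP3, of the U4/U6 part, gave 311, 292 and 303 with zymolyase, against 376, 373 and 386 in the control (-0.33 ± 0.08 SE, adjusted p = 0.0023). SNU66 gave 133, 81.2 and 130.0 with zymolyase, against 151, 144 and 160.4 in the control, where zymolyase replicate 2 stood below the other two. Its log2 fold change of -0.44 ± 0.18 SE (adjusted p = 0.045) was -0.21 without that array (adjusted p = 0.20). The call was also lost without control replicates 1, 2 or 3 (adjusted p = 0.097, 0.065 and 0.11) and without the intensity trend of eBayes (0.089). It held with the length trend removed (-0.66, adjusted p = 0.0060). PRP38, needed for activation, had a log2 fold change of -0.43 ± 0.16 SE (adjusted p = 0.032) that became -0.27 without control replicate 1 (adjusted p = 0.16). Leaving out zymolyase replicate 2 (0.060) or 3 (0.082) or removing the trend (0.36) also ended the call.

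Of the 6 tri-snRNP genes that did not pass, 4 were above 0 and 2 below. PRP18, a factor of the second catalytic step, gave 79.2, 70.0 and 44.4 with zymolyase, against 49.6, 46.7 and 44.9 in the control. Zymolyase replicate 3 lay below every control signal, and without it the log2 fold change was 0.66 instead of 0.41 (adjusted p = 0.026 and 0.16). PRP18 also passed with the trend removed (0.65, adjusted p = 0.034). SNU13, which binds U4 RNA and also box C/D small nucleolar RNAs, gave 5286, 5371 and 5061 with zymolyase, against 4575, 5048 and 4948 in the control, an interval of -0.01 to 0.23 around 0.11. For this short gene the value with the trend removed was 0.42 (adjusted p = 2.4e-05), and quantile normalization also gave a call (adjusted p = 0.039). PRP4 and PRP24, of the U4/U6 and U6 particles, had log2 fold changes of 0.20 ± 0.12 SE and 0.09 ± 0.14 SE, and PRP31 and PRP6 of -0.25 ± 0.11 SE and -0.11 ± 0.10 SE (adjusted p = 0.15, 0.61, 0.061 and 0.34). PRP31, whose groups did not overlap, passed under quantile normalization (adjusted p = 0.047), median centring (0.025), the replicate block (0.049), without control replicate 3 (0.036) and without zymolyase replicate 1 (0.048). With the trend removed PRP31 and PRP6 were lower, at -0.39 and -0.43 (adjusted p = 0.0064 and 0.0025).

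The 7 helicases are ATPases that remodel the spliceosome, and 3 of them (42.9%) rose, 0 fell and 4 did not pass. All are over 1500 nt, a class in which 48.9% of all probe sets were called higher and 17.6% lower. With the length trend removed 2 helicases were higher and 3 lower, against 32.4% and 37.9% of all probe sets in that class. PRP2, which opens the catalytic centre before the first step, gave 134, 157 and 160.2 with zymolyase, against 73.5, 51.1 and 61.6 in the control. PRP43, which takes spent spliceosomes apart and also acts in ribosome assembly, gave 1020, 1045 and 1082 with zymolyase, against 464, 577 and 567 in the control. Every zymolyase signal of both genes was above every control signal, and the log2 fold changes were 1.29 ± 0.17 SE and 0.97 ± 0.08 SE (adjusted p = 2.2e-05 and 3.2e-07). With the length trend removed they were 0.98 and 0.69, and with an offset of 50 added to the signals PRP2 was at 0.84. BRR2, which unwinds U4 from U6 and spans 6492 nt, gave 539, 597 and 548 with zymolyase, against 397, 407 and 416 in the control (0.46 ± 0.07 SE, adjusted p = 8.2e-05), and -0.07 with the trend removed (adjusted p = 0.46). PRP5, PRP28, PRP16 and PRP22, which act at U2 binding, at U1 release, at the second step and at release of the mRNA, had log2 fold changes of 0.13 ± 0.08 SE, -0.16 ± 0.14 SE, 0.04 ± 0.10 SE and 0.07 ± 0.10 SE (adjusted p = 0.17, 0.32, 0.73 and 0.52). Their 95% intervals were -0.05 to 0.32, -0.47 to 0.14, -0.17 to 0.25 and -0.14 to 0.29. These genes are long, of 1767 to 3438 nt, and with the trend removed PRP28, PRP16 and PRP22 were called lower (-0.38, -0.32 and -0.30; adjusted p = 0.03, 0.013 and 0.014).

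The Prp19 complex and its associated factors stabilise the activated spliceosome, and of 11 genes 4 rose, 4 fell and 3 did not pass (median log2 fold change -0.15). These shares, 36.4% in each direction, lay near the 32.6% higher and 38.9% lower of all probe sets. CWC25, a factor of the first catalytic step, gave 99.5, 90.4 and 86.1 with zymolyase, against 36.9, 53.0 and 46.4 in the control. It is a short gene of 540 nt that rose (1.03 ± 0.21 SE, adjusted p = 6.1e-04), and the value with the trend removed was larger, at 1.34. With an offset of 50 added to the signals before the log, which shrinks the folds of dim genes, it was 0.58. CWC23, a J-domain protein that acts in spliceosome disassembly, gave 210.3, 173 and 212 with zymolyase, against 124, 130.3 and 131 in the control (0.62 ± 0.12 SE, adjusted p = 5.2e-04; 0.81 with the trend removed). PRP46 and PRP19, the ubiquitin ligase that names the complex, had smaller rises of 0.37 ± 0.10 SE and 0.26 ± 0.07 SE (adjusted p = 0.0055 and 0.0041). PRP46 kept its call with the trend removed (0.28, adjusted p = 0.028) and PRP19 did not (0.10, adjusted p = 0.18). CWC24, a zinc finger protein that acts before the first step, gave 103, 104 and 104 with zymolyase, against 159.5, 163 and 129.8 in the control (-0.53 ± 0.14 SE, adjusted p = 0.0038). CWC27, CWC15 and CWC21 fell by less, with log2 fold changes of -0.41 ± 0.12 SE, -0.40 ± 0.09 SE and -0.27 ± 0.07 SE (adjusted p = 0.0077, 0.0018 and 0.0065). With the trend removed none of these 4 falls passed, at -0.31, -0.26, -0.08 and 0.05. CWC22, CWC2 and PRP45 did not pass, at 0.16 ± 0.10 SE, -0.15 ± 0.13 SE and -0.22 ± 0.10 SE (adjusted p = 0.14, 0.31 and 0.063). PRP45 passed in 5 alternative settings, with an adjusted p between 0.027 and 0.050.

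**Figure D4:**
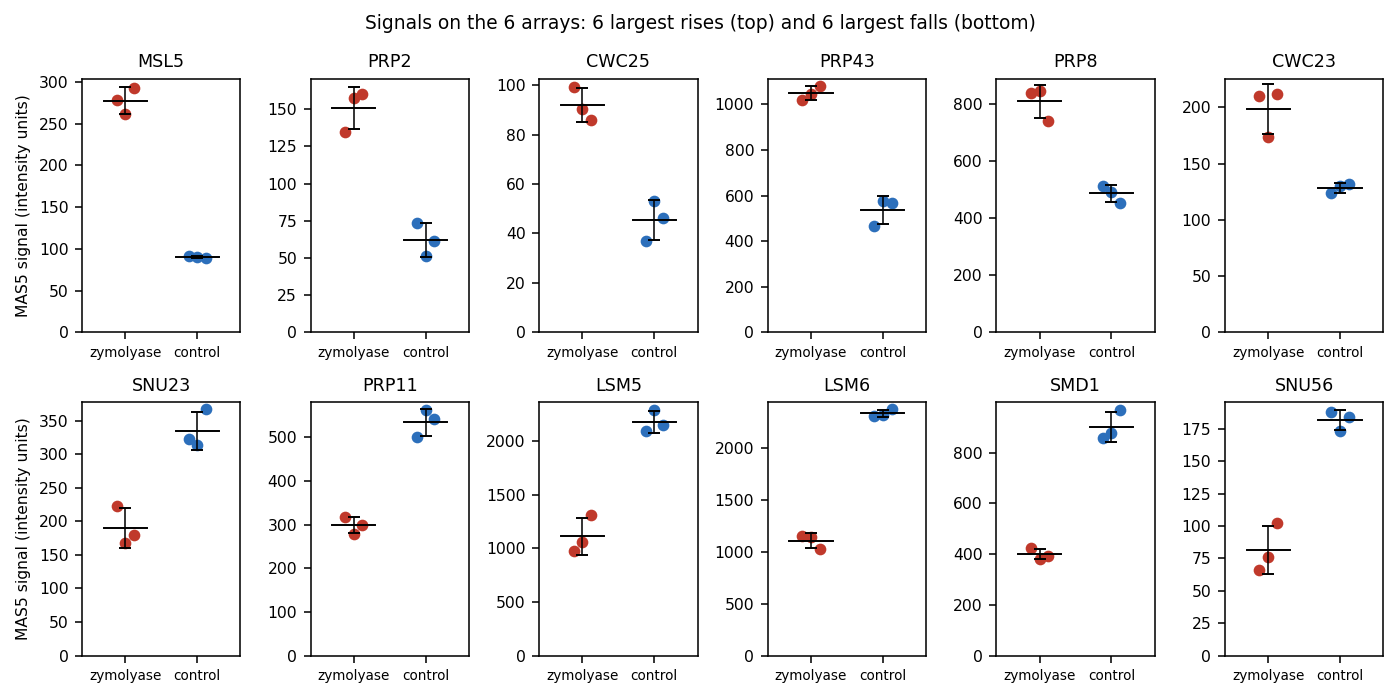
MAS5 signals in intensity units on the 3 zymolyase arrays (red, left) and 3 control arrays (blue, right) for the 6 splicing factors with the largest called rises and the 6 with the largest called falls; bars are the mean and SD of 3 arrays, and each axis starts at 0. In all 12 genes, which were picked for their large called changes, every zymolyase array lies on one side of all control arrays. This held for 73.3% of all probe sets.

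The 42 splicing genes with other names also fell more often than they rose: 6 rose, 25 fell and 11 did not pass. Thus 59.5% were lower and 14.3% higher, against 38.9% and 32.6% of all probe sets. With the trend removed 20 were lower (47.6%) and 6 higher (14.3%), against 40.1% and 28.8% of all probe sets. Their median log2 fold change was -0.37, and -0.22 with the trend removed. The largest falls were those of SNT309, a partner of Prp19 (521 ± 50.9 with zymolyase and 1163 ± 98.0 in the control, SD, n = 3 each, log2 fold change -1.16 ± 0.08 SE), YSF3, a subunit of the U2 subcomplex SF3b (229.8 ± 16.0 with zymolyase and 464 ± 13.8 in the control, SD, n = 3 each, -1.02 ± 0.09 SE), and IST3, of the complex that retains pre-mRNA in the nucleus (153 ± 19.8 with zymolyase and 305 ± 17.5 in the control, SD, n = 3 each). Their adjusted p-values were 7.1e-08, 3.0e-07 and 4.8e-06. LUC7, a further U1 protein, rose (159 ± 5.40 with zymolyase and 72.2 ± 8.31 in the control, SD, n = 3 each, 1.14 ± 0.15 SE, adjusted p = 1.4e-05), as did NPL3, an RNA-binding protein that also acts in mRNA export (7709 ± 288 with zymolyase and 3648 ± 152 in the control, SD, n = 3 each, 1.08 ± 0.05 SE, adjusted p = 4.0e-09). SPP381, of the tri-snRNP, was dimmer than the 99th percentile of second-species probe sets on every control array and on 1 of 3 zymolyase arrays. It was called higher, with mean signals of 28.9 with zymolyase and 12.9 in the control (limma adjusted p = 0.047). The geometric mean of its zymolyase signals was 1.26 times that percentile on the control arrays. Because 1 zymolyase array was itself below the percentile, this value is not a lower bound of the fold.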

How the data were processed

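The members, their roles and the further list of 42 genes were chosen with earlier results of these data known. The authors deposited 1 linear signal intensity for each probe set and array. It came from MAS5, as the submitters' processing notes say without a version. Per the labels' protocols, about 500 ng of total RNA was labelled with biotin by a 3' in vitro transcription kit. Of 10928 probe sets, 213 were controls, 3470 were not in the platform annotation used, 5498 had 1 S. cerevisiae gene in RefSeq assembly R64, and 1747 carried other genes, taken as Schizosaccharomyces pombe and used as background. Probe sets stayed in the fit if their mean signal exceeded the 90th percentile of those (10.1), which left 5394 for 5349 genes. Log2 signals, with no offset and no further scaling, entered lmFit and eBayes (trend by intensity) of limma 3.58.1, run in R 4.3.3, with zymolyase minus control as the contrast. R64 served for gene names and lengths only. The build behind the array design is not given in the sources used here, so no coordinates are printed. The length trend was removed per array by local regression (span 0.5, degree 1) of deviations from the probe set mean on log2 length, and 96.8% of the lengths are multiples of 3. The procedure was tested on simulated data with independent noise, few changed probe sets and random gene lengths. In the measured data 71.5% of probe sets were called, so the simulation does not cover that setting.

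Named with values were the 3 genes of each role with the largest absolute log2 fold change, the 6 highest and 6 lowest called, and from the list of 42 genes the 3 highest and 3 lowest called. Other genes are given with fewer values. The 600 and 1500 nt classes were set for description. The number of arrays, 3 per group, limits the precision. Alternatives were the length trend removed, quantile normalization, an offset of 50, median centring, a 99th percentile filter or none, eBayes without the trend, the replicate number as a block, probe sets of several transcripts left out, the mean over a gene's probe sets, and each array left out. No pair of arrays held identical values. Deviations of equally numbered samples from their group means correlated at 0.047, 0.066 and 0.016, so the numbers were not taken as pairs.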

Additional observations from a re-analysis of the deposited data

How the results depend on the processing

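Over the 16 alternatives the count of falls, 31, ranged from 23 to 35 and the count of rises, 10, from 8 to 11, both lowest with the gene length trend removed. Apart from the length trend, 35 of the 41 calls held in every alternative, 6 were lost in at least 1 (MUD1, MUD2, PRP21, PRP38, SNU66 and SNU114) and 6 genes gained a call in at least 1. Removing the length trend took 18 calls away and added 8, and the median over the 57 genes moved to -0.16. Among genes called with or without the trend, it turned the sign of SMB1 (0.073), SMX2 (0.038), LSM3 (0.0081), CWC21 (0.051), BRR2 (-0.067), PRP22 (-0.30) and PRP16 (-0.32), of which PRP22 and PRP16 passed as lower. The cause was not tested. An offset of 50 shrank CWC25 to 0.58, PRP2 to 0.84 and PRP18 to 0.23, and CWC25 and PRP2 kept their calls. No call in one direction became a call in the other under any alternative. With the replicate number as a block 33 genes were lower and 10 higher, and no other call changed than the gains of LSM7 and PRP31. Without any 1 array the ACT1 ratio stayed higher with zymolyase. The dimmest splicing factor signal was 1.55 times the cross-hybridisation percentile of its array, so the folds of PRP18 and CWC25 are the least certain.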

Other observations

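The following genes from the list of 42 encode partners of the helicases Prp2 and Prp43 and were picked after their values were seen. SPP2 encodes the protein that recruits and activates Prp2, and its signal was 481 ± 85.2 with zymolyase and 577 ± 21.3 in the control (SD, n = 3 each), a log2 fold change of -0.27 ± 0.11 SE (limma adjusted p = 0.033). With the length trend removed it was 0.03 (adjusted p = 0.79). SPP382 and NTR2 encode the proteins that bring Prp43 to spent spliceosomes. SPP382 gave 140 ± 30.1 with zymolyase and 219 ± 17.1 in the control (log2 fold change -0.66 ± 0.15 SE, adjusted p = 0.0013), and NTR2 gave 208 ± 12.1 with zymolyase and 385 ± 9.77 in the control (-0.89 ± 0.09 SE, adjusted p = 1.3e-06). Both were also lower with the length trend removed, at -0.93 and -0.78. CWC23, which also acts in spliceosome disassembly, rose like PRP43.

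Among the further U1 proteins beside LUC7, YHC1 fell, with a log2 fold change of -0.44 ± 0.08 SE (adjusted p = 4.0e-04, and 0.080 with the trend removed), and NAM8 and SNP1 did not pass, at -0.03 ± 0.10 and -0.01 ± 0.14 SE (adjusted p = 0.78 and 0.96). BUD31, a short gene of the Prp19-associated factors, rose like CWC25: its signal was 291 ± 15.2 with zymolyase and 194 ± 12.5 in the control (0.59 ± 0.10 SE, adjusted p = 1.3e-04; 0.91 with the trend removed). Most other Prp19-associated genes of that list did not rise. CEF1 rose (0.82), SNT309, ISY1, NTC20, SYF1 and SYF2 fell (-1.16 to -0.40), and CLF1, ECM2 and YJU2 did not pass. With the length trend removed NTC20 and SYF2 lost their calls and CLF1 passed as lower. YHC1, NAM8, SNP1 and BUD31 too were chosen after their values were seen.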
